A study of Mus musculus with 16 samples.

Results

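The genes described here are 10 collagen genes whose products do not build the banded fibrils of tendon: 4 chains of collagen VI (Col6a1, Col6a2, Col6a3, Col6a6), the anchoring-fibril collagen VII (Col7a1), both chains of collagen VIII (Col8a1, Col8a2), collagen X (Col10a1) and the membrane collagens XIII and XXIII (Col13a1, Col23a1). They were taken by name from a fixed list, and all 10 were found among 25719 listed genes. The default expression filter kept 9 of them among 14803 tested genes, and Col6a6 was left out for low counts.

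RNA of tail tendon fascicles, the thin collagen strands pulled from the mouse tail, was sequenced in 16 libraries. Of these, 8 were labelled wild type and 8 knockout, and the series describes the knockout as ScxCre;Vhlf/f: both alleles of Vhl are floxed and Cre recombinase is driven by control regions of the tendon gene Scx, so Vhl is deleted in cells of the Scx lineage and not in other cells of the strand. The Vhl protein is the substrate-binding subunit of an E3 ligase through which HIF1α, once hydroxylated in the presence of oxygen, is tagged and destroyed. The labels give neither age nor sex, nor whether the wild type mice carried floxed alleles, and they describe the cells as all cells of the tissue. In such bulk RNA, fewer cells of a type and less RNA per cell cannot be told apart.

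Collagen VI is secreted as tetramers of a trimer of 3 different chains and forms beaded filaments around cells. In tendon these filaments lie in the pericellular matrix of tenocytes, and mutations in its chains cause muscle and tendon disease. Collagens VIII and X are short network-forming collagens with a C1q-like end domain, known from vessel walls and Descemet's membrane and from hypertrophic cartilage, respectively. Collagens XIII and XXIII are transmembrane proteins that can be shed from the cell surface, and collagen VII anchors epithelial basement membranes to the stroma.

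Total counts per library lay between 10792900 and 16379401 in the wild type and between 10488355 and 18753254 in the knockout. Vhl followed the labels in every library, with a mean of 20.5 ± 3.69 CPM (counts divided by the scaled library size) for the wild type against 9.35 ± 1.25 CPM for the knockout (SD, n = 8) and no overlap. The tenocyte genes Tnmd, Fmod, Mkx, Col1a1 and Col1a2 were abundant in both groups, so the labelled tissue was matched by its markers. Of the 10 tenocyte markers listed, 1 was higher, 6 were lower and 3 did not pass the threshold in the knockout. Type I collagen took between 19.7% and 29.2% of counts in 7 wild type libraries, 11.95% in wild type library 3 and between 7.70% and 18.4% in the knockout. Scx stood apart in 4 libraries, wild type library 8 (1033 CPM) and knockout libraries 5, 6 and 8 (1251, 479 and 908 CPM), and ran from 54.5 to 140.1 CPM in the other 12. Without those 4, Col6a3 was at -0.41 and no longer passed (adjusted p = 0.0999), and the other tested collagens kept their calls. Y-linked RNA (log2 of summed CPM plus 1 for Ddx3y, Eif2s3y, Kdm5d and Uty) was 7.67 and 7.77 in wild type libraries 7 and 8. It was 7.67 and 7.77 in knockout libraries 1 and 6, and at most 0.0696 in all others. With Y-linked RNA as a covariate Col6a3 was at -0.39 and did not pass (adjusted p = 0.0511), and the other tested collagens kept their calls.

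The 250 bases before start sites of Col6a1, Col6a2, Col7a1, Col8a1, Col8a2 and Col13a1 are printed first. All of these genes fell in the knockout except Col7a1, which rose. Col6a3, Col10a1 and Col23a1, which also fell, and Col6a6, which was not tested, are not printed. For Col6a2 only the outer start site is printed. All 10 genes matched the RefSeq promoter table, with 11 start sites, 2 of them for Col6a2. The sequences are RefSeq's on GRCm38.p6, whereas the submitters' processing notes name GRCm39 for the counts, so the positions belong to the former build only. They are written 5′ to 3′ along the gene, with the last base next to the start site. Capitals mark matches to 4 motifs: the core of the HIF binding site (ACGTG or GCGTG, both strands), the GC box (GGGCGG, both strands), the AP-1 site (TGANTCA, both strands) and the TATA box (TATAAA, gene strand). Neighbouring matches can share letters.
Col6a1, chr10:76726045-76726294, minus strand: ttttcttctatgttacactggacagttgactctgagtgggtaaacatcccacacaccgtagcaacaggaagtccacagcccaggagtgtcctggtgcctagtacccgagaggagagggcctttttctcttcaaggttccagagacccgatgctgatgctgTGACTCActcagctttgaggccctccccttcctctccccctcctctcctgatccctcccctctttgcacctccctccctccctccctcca
Col6a2, outer start site, chr10:76623631-76623880, minus strand: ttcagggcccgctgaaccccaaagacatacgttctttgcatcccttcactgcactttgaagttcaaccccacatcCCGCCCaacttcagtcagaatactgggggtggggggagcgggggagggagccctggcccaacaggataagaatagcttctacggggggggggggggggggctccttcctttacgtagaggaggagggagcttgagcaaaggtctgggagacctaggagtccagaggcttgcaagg
Col7a1, chr9:108953336-108953585, plus strand: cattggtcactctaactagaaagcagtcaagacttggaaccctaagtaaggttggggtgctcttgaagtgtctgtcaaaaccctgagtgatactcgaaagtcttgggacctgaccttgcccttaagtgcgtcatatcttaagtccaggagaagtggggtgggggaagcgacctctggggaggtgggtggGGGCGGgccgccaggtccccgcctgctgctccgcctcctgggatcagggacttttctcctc
Col8a1, chr16:57754738-57754987, minus strand: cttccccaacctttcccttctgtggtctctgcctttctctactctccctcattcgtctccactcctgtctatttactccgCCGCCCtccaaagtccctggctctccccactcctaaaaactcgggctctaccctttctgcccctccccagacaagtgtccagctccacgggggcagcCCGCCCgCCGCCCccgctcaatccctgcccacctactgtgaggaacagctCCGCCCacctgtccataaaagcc
Col8a2, chr4:126286544-126286793, plus strand: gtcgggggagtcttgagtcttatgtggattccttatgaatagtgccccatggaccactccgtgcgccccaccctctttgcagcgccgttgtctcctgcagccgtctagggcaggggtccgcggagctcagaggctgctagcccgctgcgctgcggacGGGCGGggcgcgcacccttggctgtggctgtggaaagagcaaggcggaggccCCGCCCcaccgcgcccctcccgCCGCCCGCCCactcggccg
Col13a1, chr10:61979109-61979358, minus strand: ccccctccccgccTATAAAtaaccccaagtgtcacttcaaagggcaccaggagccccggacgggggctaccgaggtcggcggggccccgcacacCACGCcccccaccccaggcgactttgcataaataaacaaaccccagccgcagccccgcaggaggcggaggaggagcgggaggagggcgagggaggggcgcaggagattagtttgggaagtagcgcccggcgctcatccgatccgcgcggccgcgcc

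A HIF core was present in the windows of 3 of the 10 genes, Col6a2, Col6a6 and Col13a1, or 27.3% of the 11 windows, against 38.6% of 32851 windows of the same length in the whole table. In Col13a1 it stood as CACGC on the other strand, beginning 156 bases before the start. In Col6a2 it lay before the inner start site only, in a window that is not printed and that also held 3 GC boxes. The GC box was found for 6 genes and in 63.6% of the 11 windows, against 32.7% of all windows. It is made of G and C only. These bases made up 41.6% of the Col10a1 window and 56% to 70% of the other windows of these genes. The median over all windows was 52.4%, and whether base content accounts for the GC box share was not tested. Col8a1 and Col8a2 each held 4 matches, while Col7a1 and Col23a1 held 1 each. The AP-1 match of Col6a1 began 90 bases before the start and was the only one among these genes, and 6.75% of all windows held one. A TATA box stood 32 bases before the start of Col10a1 and 237 bases before that of Col13a1, and 7.59% of all windows held one. These are matches of letters and do not show binding.

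Per kilobase of the longest coding transcript in GENCODE release 21 of the mouse series, the order in the wild type was Col6a1 (544 ± 108 CPM per kb, SD, n = 8), Col6a2 (441 ± 98.0), Col6a3 (353 ± 92.4), Col8a2 (75.8 ± 9.48), Col8a1 (42.6 ± 13.04), Col13a1 (5.32 ± 0.906), Col10a1 (1.94 ± 0.340), Col23a1 (1.596 ± 0.190), Col7a1 (0.138 ± 0.0493) and Col6a6 (0.0479 ± 0.0174). The ranges of libraries overlapped between neighbours among the 3 main collagen VI chains, between Col8a2 and Col8a1, and between Col10a1 and Col23a1. Collagen VI was the most abundant of these collagens, and Col6a6 was near the limit of detection. In the knockout the same 3 chains came first, at 348 ± 46.4 CPM per kb for Col6a1, 300 ± 48.3 for Col6a2 and 267 ± 45.1 for Col6a3. Col13a1, at 1.40 ± 0.279 CPM per kb, came to overlap with Col10a1 (1.49 ± 0.293) and Col23a1 (0.992 ± 0.419). The order of Col6a2 and Col6a3 depends on the length used, since over all annotated exons Col6a2 was at 246 CPM per kb in the wild type and Col6a3 at 298.

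**Figure D1:**
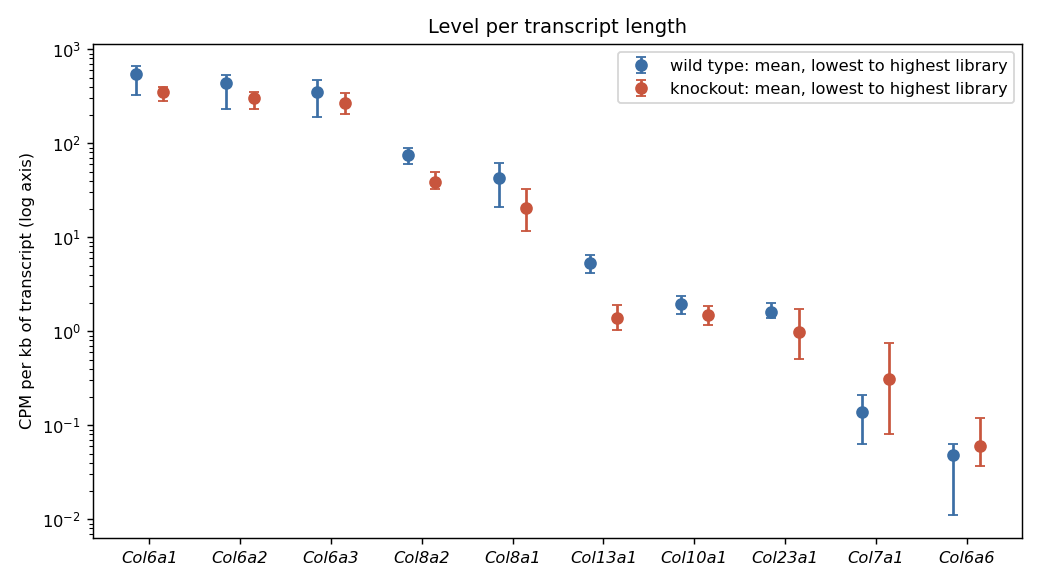
Level of each of the 10 genes in CPM per kb of transcript, on a log axis, in 8 wild type and 8 knockout libraries; points are means and bars run from the lowest to the highest library. The 3 main collagen VI chains lie above 190 CPM per kb in every library and Col6a6 below 0.12.

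The comparison of the genotypes asks which of these transcripts differ when Vhl is deleted in Scx-lineage cells. In the knockout 8 of the 9 tested genes fell: Col6a1, Col6a2, Col6a3, Col8a1, Col8a2, Col10a1, Col13a1 and Col23a1. Only Col7a1 rose. Over all tested genes 22.7% were called lower and 25.6% higher, so 48.3% passed the threshold of an adjusted p under 0.05 (quasi-likelihood F test in edgeR, adjusted by Benjamini and Hochberg's method over the 14803). The largest change was that of Col13a1, at 3.81-fold lower, followed by Col7a1 at 2.29-fold higher and Col8a1 at 2.08-fold lower. The median log2 fold change of the 9 genes was -0.65, beside 0.02 for all tested genes. In 2 of the 9, Col13a1 and Col8a2, the 8 knockout libraries lay below all 8 wild type libraries, as did 8.61% of tested genes.

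The values depend on how libraries were scaled. Fold changes here are on the scale of the trimmed mean of M-values (TMM). On total counts the median of all tested genes moved to 0.32, the higher share of calls went from 53.0% to 85.4%, and 4 of the 9 collagens were called lower. Those 4 were Col6a1 (-0.33), Col8a1 (-0.72), Col8a2 (-0.67) and Col13a1 (-1.61). On that scale Col6a2, Col6a3, Col10a1 and Col23a1 had log2 differences of -0.23, -0.08, -0.08 and -0.36 and did not pass, although all 4 lay below the shifted median.

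**Figure D2:**
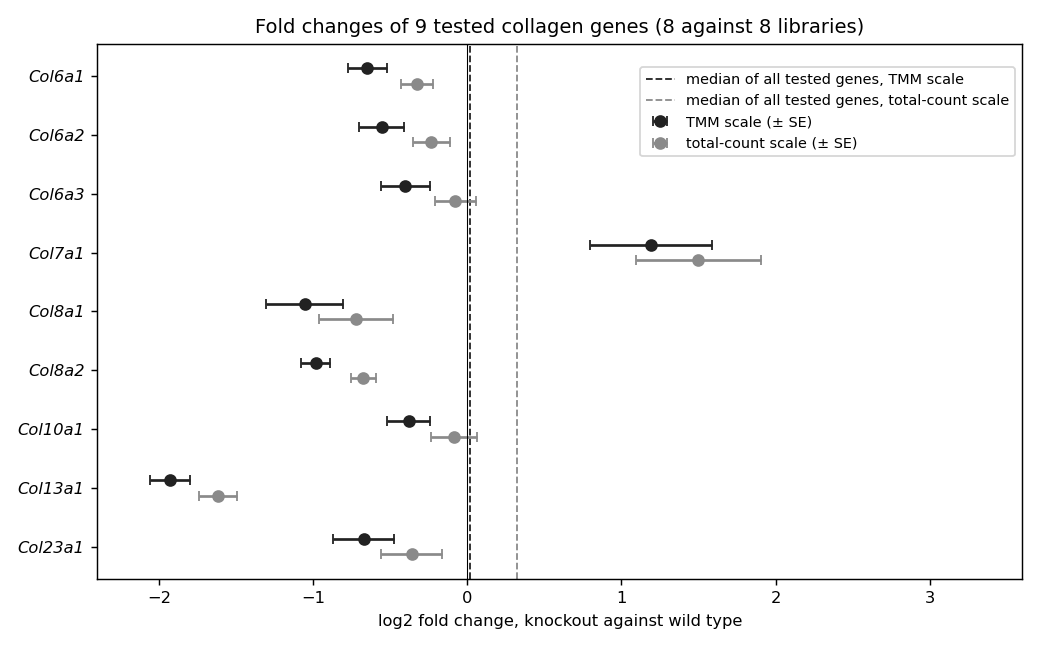
Log2 fold change of the 9 tested genes, knockout against wild type, with SE, on the TMM scale (black) and on the total-count scale (grey); dashed lines mark the median of all tested genes on each scale, 0.02 and 0.32. Col13a1 is lowest and Col7a1 is the only gene above 0 on both scales.

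Collagen VI fell in its 3 main chains. The chains α1, α2 and α3 are all needed for a classical trimer, and α3 is the longest. Col6a1 (ENSMUSG00000001119, chromosome 10) was measured between 1330 and 2696 CPM in the wild type (median 2279) and between 1163 and 1647 CPM in the knockout (median 1405). Wild type library 3 was lowest in its group and lay within the knockout range, while the other 7 were above every knockout library. The log2 fold change was -0.65 (SE 0.127, adjusted p = 0.000289), and -0.74 without wild type library 3, where the groups no longer overlapped. Since that library alone made the overlap, this result without it was fixed in advance.

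Col6a2 (ENSMUSG00000020241), the neighbour of Col6a1 on chromosome 10, ran from 1073 to 2458 CPM in the wild type (median 2104) and from 1090 to 1638 CPM in the knockout (median 1394). Again wild type library 3 was the exception, lower than any other library of either group. The change was -0.56 (SE 0.145, adjusted p = 0.00361), and -0.66 without that library, again with no overlap. As for Col6a1, that library alone made the overlap, so this result without it was fixed in advance. Col6a3 (ENSMUSG00000048126, chromosome 1) ran from 1920 to 4730 CPM (median 3584) and from 2052 to 3493 CPM (median 2809), with broad overlap. Its change of -0.40 (SE 0.158, adjusted p = 0.0433) was close to the threshold, and it no longer passed in 13 of the 16 fits that left out 1 library, at values between -0.50 and -0.33 over all 16.

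Together these 3 chains took 0.696% ± 0.111 of all counts in wild type libraries and 0.612% ± 0.0841 in knockout libraries (SD, n = 8), a share of the total and not a TMM-scaled level. Type I collagen changed by -0.95 (Col1a1) and -1.44 (Col1a2) on the same log2 scale, and whether collagen VI fell less than type I collagen was not tested. The alternative chain Col6a6, which can take the place of α3, was counted 1 to 8 times per wild type library and 4 to 13 times per knockout library. At this depth, where 3 counts corresponded to between 0.145 and 0.336 CPM, no difference was detectable. The fit without an expression filter gave 0.27 (adjusted p = 0.532). Its exons overlap the predicted gene Gm38314 on the other strand.

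**Figure D3:**
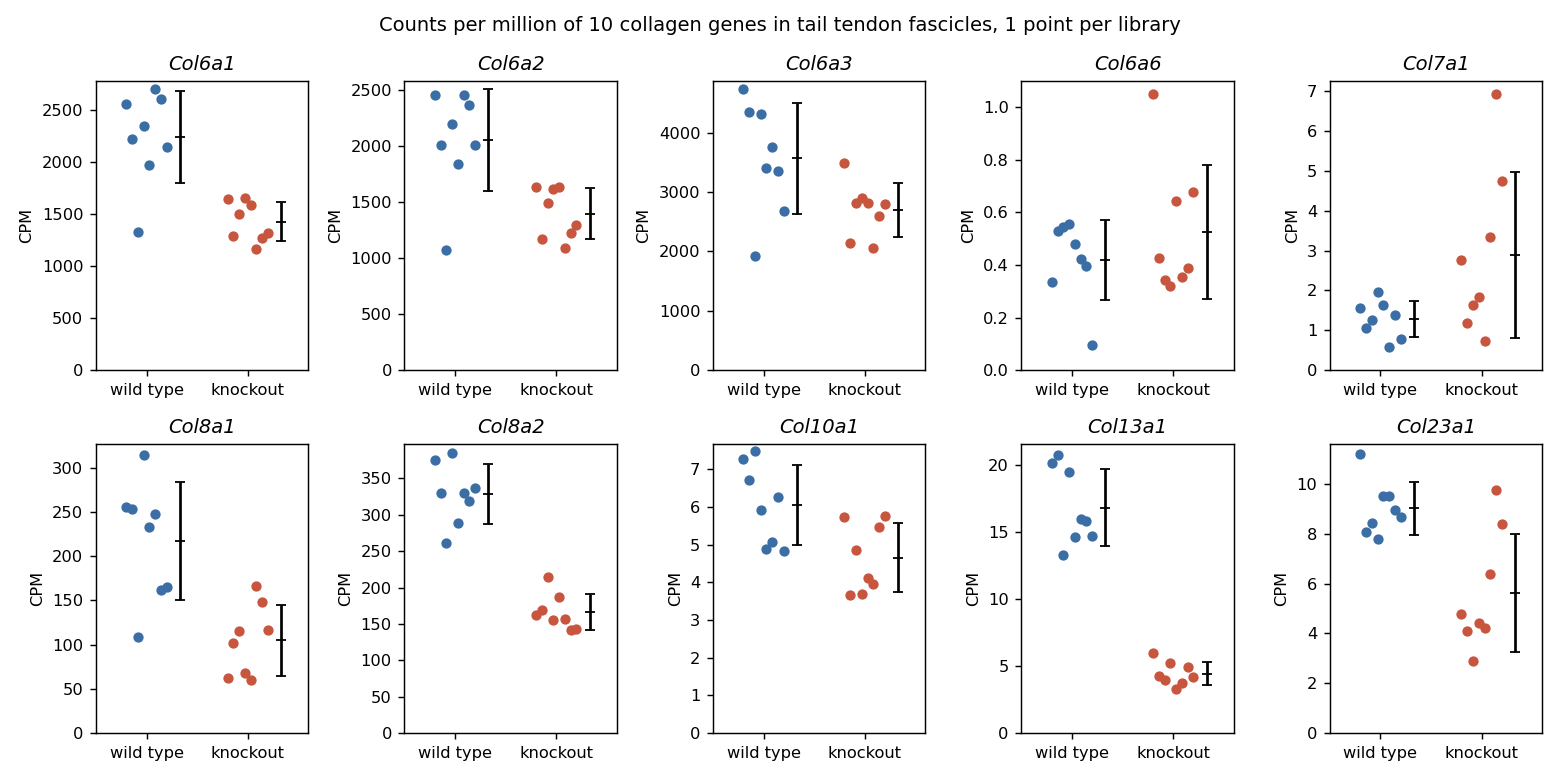
CPM of the 10 genes in each of 16 libraries, 1 point per library in order of replicate number from left to right, with the mean and SD of each group beside the points; every axis starts at 0. Col8a2 and Col13a1 separate the groups, and wild type library 3 is the lowest wild type point for Col6a1, Col6a2, Col6a3, Col8a1, Col8a2 and Col13a1.

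Of the 3 ratios among the main chains, 1 differed between the genotypes. The log2 ratio of Col6a1 to Col6a2 was 0.13 ± 0.0771 in wild type and 0.03 ± 0.0544 in knockout libraries, a difference of -0.098 (SD, n = 8; two-sided exact permutation test, p = 0.00420, 0.0126 adjusted over 6 ratios). It was -0.073 without wild type library 3, which had the highest ratio, at 0.31, and in the 16 fits that left out 1 library the adjusted p was at most 0.0289. Relative to Col6a1, Col6a3 differed by 0.26 (exact permutation p = 0.0275, n = 8, adjusted p = 0.0510), and relative to Col6a2 by 0.16 (exact permutation p = 0.120, n = 8, adjusted p = 0.143). Neither passed after adjustment. The ratio of Col6a6 to Col6a3 differed by 0.60 (exact permutation p = 0.0340, n = 8, adjusted p = 0.0510) and rests on 13 counts or fewer of Col6a6 in each library.

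Within each genotype Col6a1 and Col6a2 followed each other closely. Pearson's r of log2 CPM was 0.993 in wild type and 0.987 in knockout libraries (exact permutation p = 0.000124 and 0.000248, n = 8, adjusted over 8 relations 0.000496 and 0.000661). Spearman's rho was 0.976 and 0.905 (exact permutation p = 0.000397 and 0.00456, n = 8). Without the 2 libraries farthest from the median of Col6a1 the r was 0.981 in both groups.

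Col6a3 followed Col6a1 less closely. In the wild type r was 0.801 (exact permutation p = 0.0278, n = 8, adjusted p = 0.0361), rho was 0.476 (p = 0.243), and r was 0.404 without the 2 farthest libraries, so the relation rests on those. In the knockout r was 0.829 (exact permutation p = 0.00503, n = 8, adjusted p = 0.0101), rho was 0.952 (p = 0.00114) and r was 0.764 without the 2 farthest. Against Col6a2, Col6a3 had an r of 0.823 in the wild type (exact permutation p = 0.0257, n = 8, adjusted p = 0.0361; rho 0.595, p = 0.132) and 0.867 in the knockout (exact permutation p = 4.96e-05, n = 8, adjusted p = 0.000397; rho 0.976, p = 0.000397). Without the 2 libraries farthest for Col6a2 these values of r were 0.428 and 0.652, so in the wild type this relation too rests on those libraries. On total counts the wild type values of Col6a3 were 0.624 with Col6a1 (adjusted p = 0.132) and 0.683 with Col6a2 (adjusted p = 0.1003), and neither passed.

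**Figure D4:**
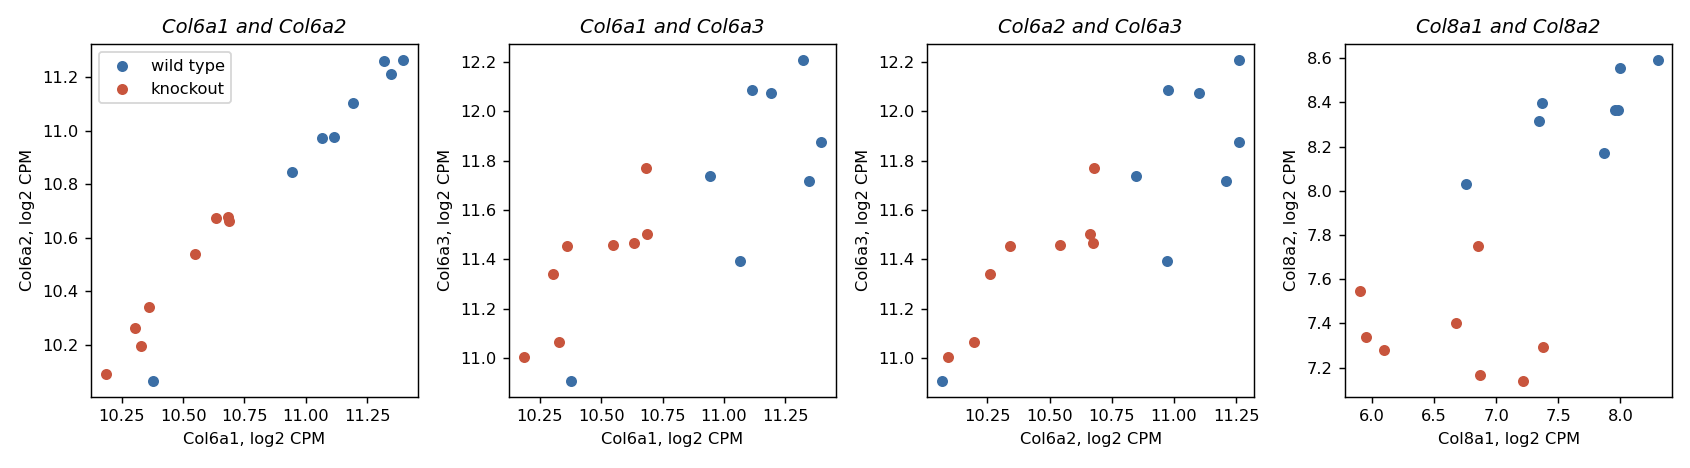
Log2 CPM of pairs of chains in each library, Col6a1 and Col6a2, Col6a1 and Col6a3, Col6a2 and Col6a3, and Col8a1 and Col8a2, for 8 wild type (blue) and 8 knockout (red) libraries. Col6a1 and Col6a2 lie along 1 line within each genotype (r of 0.993 and 0.987), while Col8a1 and Col8a2 do not in the knockout (r of -0.270).

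Both chains of collagen VIII fell. Col8a1 and Col8a2 encode short chains that form hexagonal networks, alone or together. Col8a2 (ENSMUSG00000056174, chromosome 4) ran from 261 to 386 CPM in the wild type (median 330) and from 141 to 215 CPM in the knockout (median 159). Every knockout library lay below every wild type library, wild type library 3 included. The log2 fold change was -0.98 (SE 0.0955, adjusted p = 6.12e-08). Col8a1 (ENSMUSG00000068196, chromosome 16) ran from 108 to 315 CPM (median 241) and from 59.7 to 166 CPM (median 109), and it varied more between libraries than Col8a2 in both groups. Wild type libraries 3, 7 and 8 were its lowest and overlapped knockout libraries 3, 6, 7 and 8. The change was -1.05 (SE 0.250, adjusted p = 0.00227), and -1.43 (adjusted p = 0.000397) without knockout libraries 6, 7 and 8. Those libraries were its highest in the knockout and were left out after the values were seen. A larger fall without them was therefore fixed in advance, and its p-value is no added evidence.

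The ratio of Col8a1 to Col8a2 differed by -0.095 between the genotypes (SD 0.381 in wild type and 0.654 in knockout libraries, n = 8; exact permutation p = 0.722). Without knockout libraries 6, 7 and 8 it was -0.52 (exact permutation p = 0.0373, adjusted p = 0.0746), which did not pass after adjustment. Those libraries had the highest ratios in the knockout, so a shift downward without them was fixed in advance. In the wild type the chains went together (r = 0.750, exact permutation p = 0.0315, n = 8, adjusted p = 0.0361; rho 0.786, p = 0.0279), although r was 0.421 without the 2 farthest libraries and 0.399 (adjusted p = 0.379) on total counts, where the relation did not pass. In the knockout they did not (r = -0.270, exact permutation p = 0.527, n = 8; rho -0.500, p = 0.216; r = -0.132 without the 2 farthest). The difference between the groups in this correlation was not tested.

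Collagen X was scarce. Col10a1 (ENSMUSG00000039462, chromosome 10), the marker collagen of hypertrophic chondrocytes, ran from 4.83 to 7.49 CPM in the wild type (median 6.10) and from 3.66 to 5.77 CPM in the knockout (median 4.49), with overlap. The log2 fold change was -0.38 (SE 0.137, adjusted p = 0.0277), and the call was lost in 6 of the 16 fits without 1 library, at values between -0.43 and -0.34 over all 16. Col10a1 lies within Nt5dc1 and their exons overlap on opposite strands. The strand setting of the counting is not given in the sources used here, so these counts are uncertain. Nt5dc1, chosen after its values were seen, was measured at 22.4 ± 1.94 and 20.5 ± 2.50 CPM. Other genes of hypertrophic cartilage did not follow Col10a1: of 12 listed, 7 were tested, 5 rose and none fell. Phospho1, a phosphatase of matrix mineralisation, rose by 2.56 (SE 0.138, adjusted p = 1.77e-11), Runx2, a transcription factor of hypertrophic chondrocytes and osteoblasts, by 1.61 (adjusted p = 1.78e-06), and Mef2c by 0.86 (adjusted p = 0.0316). The defining genes Ihh, Ibsp, Panx3, Sp7 and Alpl were too low to be tested, each with a mean of at most 0.371 CPM in either group.

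The membrane collagens Col13a1 and Col23a1 fell too. Col13a1 encodes a transmembrane collagen found at cell-matrix contacts and at the neuromuscular junction. Col13a1 (ENSMUSG00000058806, chromosome 10) ran from 13.3 to 20.7 CPM in the wild type (median 15.9) and from 3.26 to 5.99 CPM in the knockout (median 4.21). Every wild type library was at least 13.3 CPM and no knockout library reached 6. Its log2 fold change of -1.93 (SE 0.130, adjusted p = 3.11e-10) lay between -2.02 and -1.61 over 30 alternative fits, all past the threshold.

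Col23a1 (ENSMUSG00000063564, chromosome 11), a related transmembrane collagen, ran from 7.81 to 11.2 CPM in the wild type (median 8.82) and from 2.90 to 9.75 CPM in the knockout (median 4.60). In the wild type its libraries lay close together, whereas knockout libraries 7 and 8, at 9.75 and 8.40 CPM, reached into the wild type range and library 6 stood at 6.39. The change was -0.67 (SE 0.196, adjusted p = 0.00817), and -1.14 (adjusted p = 1.90e-06) without knockout libraries 6, 7 and 8. Those libraries were its highest in the knockout and were left out after the values were seen. A larger fall without them was therefore fixed in advance, and its p-value is no added evidence. The log2 ratio of Col13a1 to Col23a1 was 0.88 ± 0.283 in wild type and -0.25 ± 0.588 in knockout libraries. This difference of -1.13 had an exact permutation p of 0.000155 (n = 8), the smallest that 12870 assignments can give, and 0.000932 adjusted over 6 ratios. Its size rested in part on knockout libraries 6, 7 and 8: without them it was -0.74 (exact permutation p = 0.000777, the smallest that 1287 assignments can give, adjusted p = 0.00466). With the endothelial score as a covariate Col13a1 and Col23a1 stood at -2.02 and -1.80, and their difference was not tested in that fit.

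Collagen VII was the exception in direction. Col7a1 (ENSMUSG00000025650, chromosome 9) ran from 0.591 to 1.95 CPM in the wild type (median 1.32), which is 7 to 28 counts per library, and from 0.742 to 6.93 CPM in the knockout (median 2.30), which is 14 to 143 counts. Knockout libraries 1, 6, 7 and 8 lay above all wild type libraries, and the other 4 lay among them. The log2 fold change was 1.19 (SE 0.398, adjusted p = 0.0192). It was 0.85 (adjusted p = 0.0532) without knockout library 7, 0.32 (adjusted p = 0.451) without knockout libraries 6, 7 and 8, and 0.45 (adjusted p = 0.222) with the muscle score as a covariate. Knockout libraries 6, 7 and 8 were its highest, so a smaller rise without them was fixed in advance. The keratinocyte markers Krt5, Krt14 and Dsg3 had means of at most 0.0603 CPM in both groups, and Krt1 and Krt15 had no count in any library. Of the 10 keratinocyte markers listed, however, 4 were expressed enough to be tested, with 1 higher and 2 lower. The summed list ran from 29.9 to 57.7 CPM in the wild type and from 27.6 to 34.1 CPM in the knockout. Whether epithelial RNA had a part in Col7a1 was not tested. An annotated miRNA gene, Mir711, overlaps an exon of Col7a1 on the same strand.

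Knockout libraries 6, 7 and 8 also had the most RNA of vessel and muscle markers. The endothelial score, the mean log2 CPM of 12 tested endothelial markers, lay between 0.94 and 1.77 in the wild type and between 2.14 and 5.52 in the knockout, and was 4.87, 5.52 and 5.02 in those 3 libraries. Within the knockout, Col7a1 followed this score (r = 0.903, exact permutation p = 0.00270, n = 8, adjusted over 18 relations 0.0346; rho 0.905, p = 0.00456; r = 0.867 without the 2 farthest libraries), and so did Col23a1 (r = 0.889, exact permutation p = 0.00384, n = 8, adjusted p = 0.0346; rho 0.952, p = 0.00114; r = 0.920 without the 2 farthest). Col8a2 went the other way (r = -0.805, exact permutation p = 0.0121, n = 8, adjusted p = 0.0725; rho -0.905, p = 0.00456, adjusted p = 0.0274; r = -0.931 without the 2 farthest). No relation with the score passed in the wild type, where the scores covered a narrow range. The score was chosen for this use after the values were seen. The muscle score, the mean log2 CPM of 13 skeletal muscle markers, was also highest in knockout libraries 6, 7 and 8, at 8.20, 8.77 and 8.66. Correlations of these collagens with the muscle score were not tested, so a relation particular to the endothelial score is not shown.

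**Figure D5:**
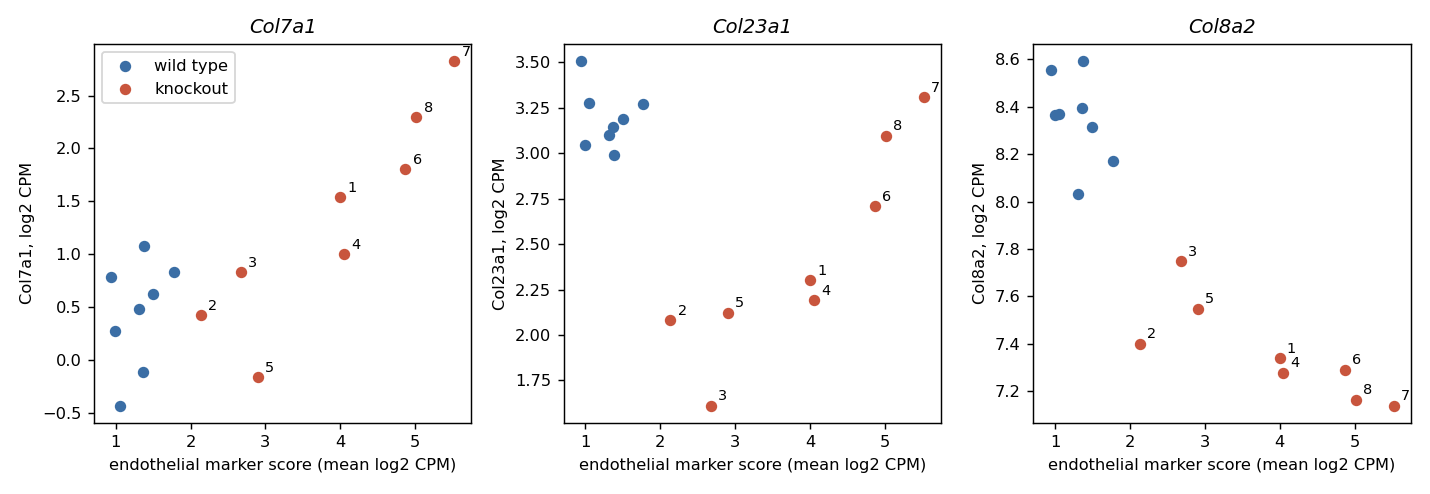
Log2 CPM of Col7a1, Col23a1 and Col8a2 against the endothelial marker score (mean log2 CPM of 12 markers) for 8 wild type (blue) and 8 knockout (red, numbered by replicate) libraries. Knockout libraries 6, 7 and 8 have the highest scores, 4.87, 5.52 and 5.02, with high Col7a1 and Col23a1. The same libraries also have the highest muscle scores.

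With the endothelial score as a covariate Col7a1 changed sign, to -1.23 (adjusted p = 0.0434), and Col23a1 was at -1.80. The score itself does not overlap between the genotypes, so that in this fit genotype and score can hardly be told apart, and 3997 of all genes were called in place of 7151. Col13a1 was at -2.02, Col8a1 at -1.53 and Col8a2 at -0.61 in it, and these still passed, while Col6a1, Col6a2, Col6a3 and Col10a1 did not (-0.45, -0.35, -0.33 and -0.62). The part of vessel, mural or muscle cells in the changes of these collagens was not tested.

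Marker lists of the other cell types describe RNA and do not count cells. Over all tested genes 25.6% were called higher and 22.7% lower, as background for the counts of each list. Summed endothelial markers ran from 52.9 to 73.2 CPM in the wild type and from 87.1 to 714 in the knockout, with 10 of 12 tested genes higher and none lower. Mural markers ran from 359 to 516 and from 377 to 2302 CPM (7 of 10 higher, 1 lower), and erythroid markers from 15.1 to 50.8 and from 77.8 to 563 CPM (5 of 5 higher). Skeletal muscle markers ran from 52.0 to 4606 and from 152 to 8936 CPM, with 1 of 13 higher. Macrophage markers had 3 of 9 higher, Schwann cell markers 3 of 7, adipocyte markers 1 of 2, chondrocyte markers 3 of 6 with 2 lower, keratinocyte markers 1 of 4 with 2 lower, hypertrophic chondrocyte markers, among which Col10a1 was counted, 1 of 2 with 1 lower, and markers of sheath and other fibroblasts 2 of 9 with 2 lower.

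Proteins that bind collagen VI moved in both directions. Of 11 listed genes 10 were tested, and all 10 changed, 4 higher and 6 lower (median -0.35). The matrilins, adaptor proteins that link collagen VI filaments to other matrix, fell: Matn3 averaged 19.4 ± 4.95 CPM against 1.18 ± 0.495 CPM, a log2 change of -4.02 (SE 0.226, adjusted p = 3.79e-11), Matn4 by 2.53 (adjusted p = 1.55e-06) and Matn2 by 1.05 (adjusted p = 8.15e-07), each without overlap between the groups. In contrast Fn1, which encodes fibronectin, rose from 1414 ± 201 to 4206 ± 702 CPM (1.57, SE 0.120, adjusted p = 2.00e-09). The small proteoglycan biglycan, which binds collagen VI, rose by 1.11 (Bgn, adjusted p = 1.32e-08), and Vwa1, a von Willebrand domain protein of the pericellular matrix, by 1.20 (adjusted p = 2.99e-07).

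Among 13 tested collagen receptors 3 rose and 4 fell (median -0.19). Antxr1, an anthrax toxin receptor that binds collagen VI, fell from 725 ± 98.7 to 356 ± 67.3 CPM (-1.03, SE 0.114, adjusted p = 3.79e-07), and the collagen-activated kinase Ddr2 fell by 0.80 (adjusted p = 5.29e-07). The integrin subunit gene Itga2 fell by 0.84 (adjusted p = 2.37e-04), whereas Itga11 and Itga1 rose by 0.65 (adjusted p = 0.0165) and 0.36 (adjusted p = 0.00255). Itgb1, the shared β1 subunit, was at 0.02 (adjusted p = 0.838).

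Of 7 tested genes for collagen VII partners and processing, 2 rose and 5 fell (median -0.65). Genes of laminin 332, the ligand of collagen VII in anchoring fibrils, moved in both directions: Lamb3, with means of 2.73 ± 1.13 and 15.1 ± 4.52 CPM, rose by 2.45 (SE 0.222, adjusted p = 3.15e-08), and Lama3 fell by 1.45 (adjusted p = 2.27e-06). Itgb4, the hemidesmosomal integrin chain, fell by 1.34 (adjusted p = 6.19e-06), and the procollagen protease Tll1 by 1.01 (adjusted p = 8.72e-04).

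Genes for shedding of membrane collagens and for their synaptic partners gave 4 higher and 3 lower of 9 tested (median 0.20). Among the proteases, Pcsk6 rose by 0.54 (adjusted p = 4.49e-05), Adam17 by 0.50 (adjusted p = 1.02e-06) and Pcsk5 by 0.35 (adjusted p = 0.0450), while Furin, which cleaves collagen XIII, was at 0.03 (adjusted p = 0.797). The 3 that fell were the receptor kinase gene Musk, by 0.85 (adjusted p = 9.53e-05), Rapsn, by 0.71 (adjusted p = 0.00146), and Lrp4, by 0.65 (adjusted p = 2.57e-04).

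Relatives of collagens VIII and X through the C1q domain gave 3 higher and 3 lower of 13 tested (median -0.02). C1qtnf6 fell from 586 ± 161 to 113 ± 10.8 CPM (-2.37, SE 0.171, adjusted p = 1.37e-09), C1qtnf2 by 2.00 (adjusted p = 3.23e-11) and C1qtnf5 by 1.03 (adjusted p = 1.74e-06), all without overlap. Mmrn2, an endothelial matrix protein, rose by 3.17 (adjusted p = 1.34e-04), C1qtnf4 by 1.14 (adjusted p = 1.52e-04) and C1qtnf3 by 0.97 (adjusted p = 2.04e-04).

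Other collagens served as a measure of the class. Of 11 fibrillar collagen genes 5 were higher, 3 lower and 3 not past the threshold (median -0.26), with Col3a1 at 1.89, Col24a1 at 1.67 and Col5a2 at 1.10 against Col11a2 at -3.03. Of 7 tested basement membrane collagens 3 were higher, led by Col18a1 at 3.44, and 4 lower, led by Col4a3 at -2.20 (median -0.44). Among 6 further collagens of the network, beaded-filament and membrane kinds, Col17a1 alone was tested, at -0.17 (adjusted p = 0.397). Col25a1 and Col6a4, named after their values were seen, were too low for the test. Col25a1, a membrane collagen like Col13a1, had 0 to 3 counts per wild type library and 5 to 206 per knockout library. Col6a4, a collagen VI chain, had 0 to 2 counts and 2 to 50 counts, so that the lowest knockout library had no more counts than the highest wild type library. In CPM, Col25a1 was at most 0.288 in wild type and at least 0.402 in knockout libraries, and Col6a4 at most 0.139 and at least 0.170. On that scale neither gene overlapped between the groups. Of all tested genes, 10.8% were higher in the knockout without overlap.

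The genes most like each member across libraries were sought within the genotypes, by the mean of 2 Pearson correlations over 8 libraries each, as a description. For Col6a1 the nearest gene among those tested was Col6a2 (mean r 0.990), and Ncstn was also among its nearest (0.914). Col6a3 was nearest to Ncln (0.922), Ttyh3 (0.920) and the mechanosensitive channel gene Piezo1 (0.919). Col8a1 was nearest to Anxa6 (0.952) and Col8a2 to Lypla2 (0.929). Col7a1 was nearest to Itpkb (0.930), Col23a1 to Nr1h3 (0.870), Col10a1 to Arid1a (0.872) and Col13a1 to B930086L07Rik (0.869). Libraries share depth, scaling and the makeup of the tissue, so these values do not stand for pairs of genes alone.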

How the data were processed

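RNA sequencing counts of 16 tail tendon fascicle libraries (8 wild type, 8 knockout, grouped by title) were analysed. The deposited files hold whole-number counts per gene, 1 library each. The submitters' processing notes name GRCm39, kallisto and featureCounts without roles; version, annotation and strand setting are not given in the sources used here. Symbols came from the supplied name table (25614 of 25719 identifiers matched). Nothing in the labels says that libraries came from separate mice, so p-values measure the spread between these libraries.

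Genes passing edgeR's default filter (14803) were tested in R 4.3.3 with edgeR 4.0.16 (robust quasi-likelihood F test), TMM scaling, genotype as the only term, two-sided, with Benjamini-Hochberg adjustment over all of them and a threshold of 0.05. SE is the log2 fold change divided by the square root of F. CPM use TMM-scaled library sizes, and log2 CPM a prior count of 2. The fit and the permutation test were checked on simulated data. DESeq2 1.42.0 and limma 3.58.1 served as alternatives. Ratios and correlations used exact tests with numpy 2.4.6. No 2 libraries were repeats (lowest chi-square per degree of freedom 6.56).

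Counting limits precision at low levels; a floor of 3 counts covers counting error only. Correlations of whole profiles gave no sign that equal replicate numbers pair libraries, but they cannot exclude pairing, and the labels do not say. The members, gene lists and tests were chosen with earlier results of these data known. All members were named; from each of 9 lists of related genes, up to 3 rises and 3 falls past the threshold with a mean log2 CPM of at least 1, and the 3 most correlated genes of a member, of which the text gives the first ones; 12 marker lists were counted. Some genes that the rule names are not reported here. Alternatives were other scalings, filters, tests, covariates, the replicate block and left-out libraries.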

Additional observations from a re-analysis of the deposited data

Results flagged for a closer look

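In 32 checks of 8 libraries each (10 genes and 6 ratios in 2 groups), an extreme library lay far from its neighbours in 4, and chance alone would give about 1 in 20, or 1.6. Wild type library 3 accounts for 3 of them, which are not independent. Its log2 CPM was 10.4 for Col6a1 (10.377, with the next wild type value at 10.9436) and 10.1 for Col6a2 (10.0671 against 10.8468). Its log2 ratio of Col6a1 to Col6a2 was 0.3099, against 0.141 in the next highest. Type I collagen was also lowest in that library, at 11.95% of counts, while its total of 12029665 counts lay within the range of its group.

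The fourth is Col6a6 in wild type library 8, at a log2 CPM of -2.02 against -1.04 in the next lowest, where the gene was counted 1 time.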

How the results depend on the processing

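Of the 9 tested collagens, Col13a1, Col8a1 and Col8a2 kept direction and call in all 30 alternative fits, and Col6a1, Col6a2 and Col23a1 in 29, 28 and 29. Col10a1 kept its call in 22, Col6a3 in 10 and Col7a1 in 25; Col7a1 alone changed sign, to -1.23 with the endothelial score. Where a call was lost, the cause was not tested. The count of members called lower was 4 with total counts and 5 with the endothelial score, Col7a1 among the latter, and that of members called higher was 0 with the replicate block, the muscle score, the endothelial score and without knockout libraries 6, 7 and 8, an alternative chosen after seeing the data. All genes called numbered 3997 with the endothelial score. Leaving out 1 library gave 0 to 1 members higher (0 without knockout library 7) and 2 to 4 without overlap (4 without wild type library 3). It gave ratio differences of 0.21 to 0.31 for Col6a3/Col6a1, which passed in 5 of 16 cases, 0.49 to 0.77 for Col6a6/Col6a3, which passed in 2, and -0.21 to 0.033 for Col8a1/Col8a2, above 0 only without knockout library 5. With total counts the wild type correlations were 0.62 (Col6a1 and Col6a3), 0.68 (Col6a2 and Col6a3) and 0.40 (Col8a1 and Col8a2) and no longer passed. Same-numbered libraries correlated between -0.40 and 0.39 over all tested genes, and 1 of 8 wild type libraries was nearest its own number. With the replicate block 7010 genes were called, Col6a3 was at -0.37 (adjusted p = 0.0702) and Col7a1 at 0.97 (adjusted p = 0.0771); no other member lost its call. Depth limits Col6a6 and Col7a1.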
